A study of Homo sapiens with 12 samples.

Results

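Of the 15601 genes measured in SNU449 liver cancer cells, 107 lie in the distal part of the long arm of human chromosome 4. The transcript levels of 52 of them were followed across 4 cell populations. The genes were chosen by position and by mean level, as protein-coding genes that start at or beyond the gene TMEM184C (chromosome 4 of GRCh38, 147617386 to 147672044, plus strand) and reach FRG1 (189940870 to 189963202, plus strand) near the end of the arm, with a mean normalized count above 30. The mean normalized count is the authors' read count per gene after scaling for library size, averaged over 12 libraries. FGA, FGB, FGG and MSMO1 lie in the same region and were left out. Of 91 protein-coding genes listed there, 36 were at or under the minimum of 30 and are not among the 52.

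SNU449 is an established, mesenchymal-like hepatocellular carcinoma line, and regorafenib (Rego) is a multi-kinase inhibitor used in liver cancer. The 4 groups were SNU449-ctrl (Axl-proficient, naive), SNU449-Rego (Axl-proficient, made resistant by stepwise increase of Rego), SNU449-Axl-KO-ctrl (Axl-deficient, naive) and SNU449-Axl-KO-Rego (Axl-deficient and made resistant in the same way). Resistant cells received Rego after each splitting, so resistance and the presence of the drug cannot be told apart. Each group is 1 cell population with 3 libraries that are described as technical triplicates, and p-values therefore measure the spread between libraries only. A difference between groups cannot be told apart from a difference that arose while 1 population was grown or selected.

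The genes of a chromosome arm share no common function, but a gain or loss of the arm changes their number of copies together. In tumor cells, whole arms or long stretches are often gained or lost, and the RNA of many genes in such a stretch then moves together, while genes with strong control of their own move apart. Loss of 4q is a frequent change in liver cancer. DNA copy number was not measured in these samples, and in bulk RNA a lower level in every cell cannot be told apart from fewer cells that express the gene.

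The labels were checked first. AXL (chromosome 19, 41219223 to 41261766) had levels of 9.51, 9.88 and 9.48 in the SNU449-ctrl libraries and of 10.27, 9.67 and 10.31 in the SNU449-Rego libraries. In the Axl-deficient cells its levels were 5.17, 5.75 and 5.09 in control and 5.67, 5.29 and 5.73 in Rego-resistant libraries. A level is log2(value + 1) of the deposited library value, which is already stabilized for its variance. The lowest value in the tables is 12, so a level near 4 is the bottom of the scale and differences of weakly expressed genes are understated. The mesenchymal-like markers VIM, CDH2, FN1, ZEB1 and SPARC had mean levels between 7.22 and 14.36 in the groups, whereas the hepatocyte markers ALB, APOA2, APOB, TTR, SERPINA1 and HNF4A were not listed and APOA1 and AFP were at 5.23 or less.

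The stretches upstream of 4 distal 4q genes are shown because they stand for the range of responses described below. In level, PLRG1 is among the genes with the largest falls, and FNIP2 is next to the median of the 52 genes. NEIL3 fell in both comparisons with SNU449-ctrl, and TRIML2 did not fall. Each stretch is the 250 bases before a RefSeq start on GRCh38, 5′ to 3′ on the strand of the gene, and none of them overlaps an annotated exon. FNIP2 and TRIML2 each have a further RefSeq start whose stretch is not shown. Capitals mark matches on either strand to the GC box, spelled GGGCGG, or to a second motif, spelled CCAAT and known as the CAAT box, and neighboring matches can share bases. The letters TATAAA of a TATA box do not occur in these stretches on either strand.
PLRG1 (chr4:154550401-154550650, minus strand): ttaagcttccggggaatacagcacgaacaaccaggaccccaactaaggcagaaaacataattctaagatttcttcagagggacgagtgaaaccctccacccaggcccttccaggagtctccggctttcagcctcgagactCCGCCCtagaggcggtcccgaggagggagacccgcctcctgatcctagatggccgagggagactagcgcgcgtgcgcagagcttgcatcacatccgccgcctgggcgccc
FNIP2 (chr4:158768776-158769025, plus strand): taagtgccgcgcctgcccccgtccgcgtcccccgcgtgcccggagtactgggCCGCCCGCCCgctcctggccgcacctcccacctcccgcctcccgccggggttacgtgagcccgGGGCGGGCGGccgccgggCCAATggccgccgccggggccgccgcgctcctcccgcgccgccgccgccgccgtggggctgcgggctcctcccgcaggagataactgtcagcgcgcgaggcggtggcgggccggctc
NEIL3 (chr4:177309624-177309873, plus strand): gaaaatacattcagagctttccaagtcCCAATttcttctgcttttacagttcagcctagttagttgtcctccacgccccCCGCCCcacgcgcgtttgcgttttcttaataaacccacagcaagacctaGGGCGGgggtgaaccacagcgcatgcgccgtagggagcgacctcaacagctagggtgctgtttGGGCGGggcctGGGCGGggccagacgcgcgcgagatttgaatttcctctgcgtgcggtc
TRIML2 (chr4:188109604-188109853, minus strand): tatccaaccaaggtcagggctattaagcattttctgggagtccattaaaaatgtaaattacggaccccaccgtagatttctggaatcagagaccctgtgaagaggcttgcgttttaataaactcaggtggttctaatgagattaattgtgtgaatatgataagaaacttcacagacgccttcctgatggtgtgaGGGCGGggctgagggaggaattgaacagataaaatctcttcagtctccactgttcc

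The FNIP2 stretch holds 42 CG dinucleotides and the NEIL3 stretch holds 19. The stretch before the further FNIP2 start (158805589 to 158805838), not shown, holds 0. The PLRG1 stretch holds 17 and the TRIML2 stretch holds 5. RefSeq promoters were found for 45 of the 52 genes, and their median was 25 CG dinucleotides in 250 bases, against 11 over 27305 promoters of all genes. A GC box was in 73.3% of the 45 promoters and in 42.3% of all promoters, the CAAT motif in 35.6% and 33.0%, and a TATA box in 2.22% and 11.1%. The 45 promoters belong to protein-coding genes chosen for a mean normalized count above 30, whereas the 27305 were not chosen by level. Whether the contrast belongs to the region or to expressed genes in general was not tested. These matches are a description of the letters in the windows and were not compared with the levels.

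In SNU449-Axl-KO-ctrl cells, nearly the whole set of distal 4q genes lay below its level in SNU449-ctrl cells. The log2 difference was below 0 for 49 of the 52 genes, with a median of -0.60 and quartiles of -1.03 and -0.39. Of the 52 genes, 24 fell and 0 rose (limma, Benjamini-Hochberg adjusted over all genes), while the test called 3.43% of all 15601 genes as lower. The 24 include TENM3, which passed the minimum only through its count in SNU449-ctrl cells, so that its fall was set by the choice of genes. Of the other 51 genes, 23 fell, with a median of -0.60. Among 9054 protein-coding genes outside the region with the same minimum, 3.73% were called lower and the median log2 difference was 0.01. The list was proposed with these differences known, so its count and its median are a description without a p-value of their own.

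**Figure D1:**
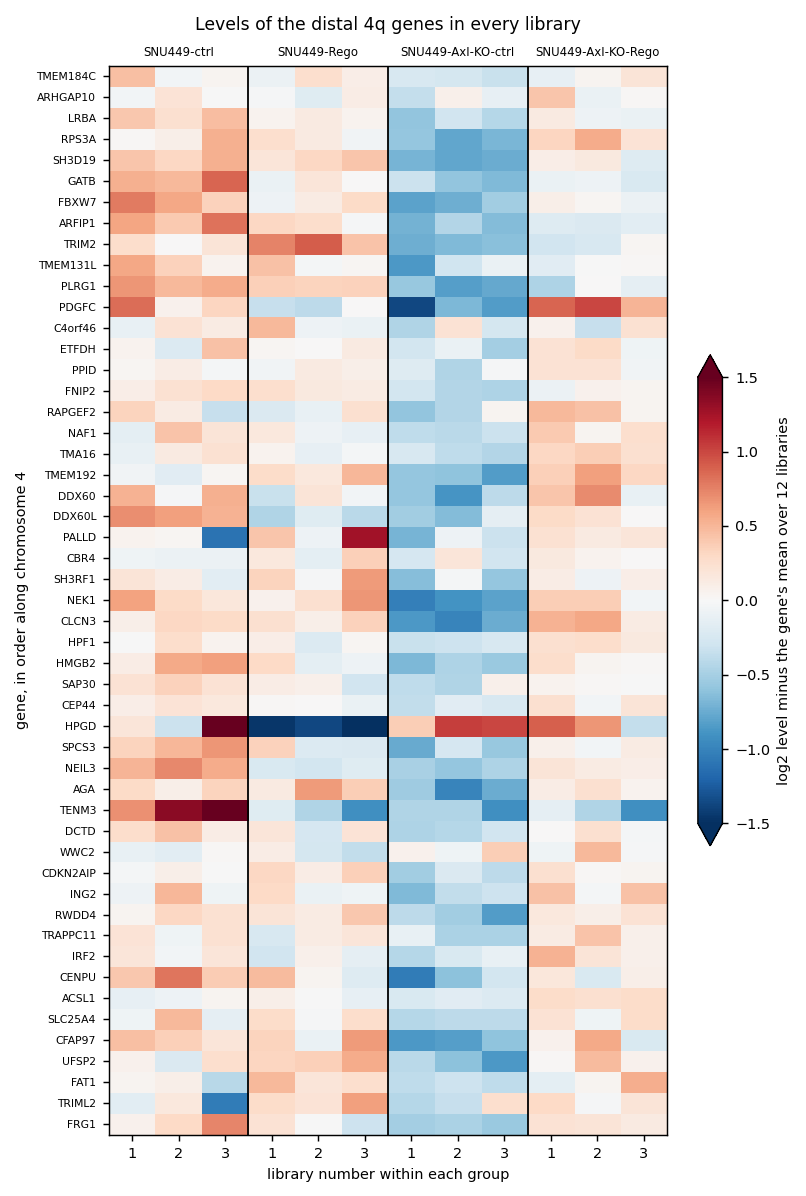
Levels of 51 of the 52 distal 4q genes (rows, in order along the chromosome) in the 12 libraries (columns, 3 per group), as the log2 level minus the gene's mean over all libraries; colors beyond 1.5 in either direction are saturated. The SNU449-Axl-KO-ctrl columns are blue for most genes, and the rows of HPGD, WWC2 and TRIML2 break the pattern.

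The 3 libraries of SNU449-Axl-KO-ctrl cells resembled each other in this respect. After each gene was centred on its mean over 12 libraries, the median of the 52 genes was -0.48, -0.44 and -0.42 in these libraries. In the other 9 libraries the median was between 0.03 and 0.23. For 34 of the 52 genes, the 3 SNU449-Axl-KO-ctrl libraries were lower than each of the 9 others, compared with 2.91% of all genes. The group had the lowest mean level of the 4 groups for 49 of the 52 genes. This order was not counted over all genes, and the 49 include TENM3, which was at the bottom of the scale in every group but SNU449-ctrl.

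The mean normalized counts gave the size of this shift on a linear scale. Counts per group were solved from the authors' mean normalized counts in 8 tables that combine the groups in different ways, and the 4 groups were put on the same scale by a median ratio of 1 over all genes above the minimum. The solution met the tables within a median of 0.0516% for the 52 genes. The median ratio of SNU449-Axl-KO-ctrl to SNU449-ctrl was 0.50 over the 52 genes, with quartiles of 0.360 and 0.612, and the ratio was under 1 for 49 of them. The genes outside the region had a median ratio of 1.01, which the scaling sets near 1, and the 277 genes on the rest of chromosome 4 had 0.736. These counts have no replicate error.

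**Figure D2:**
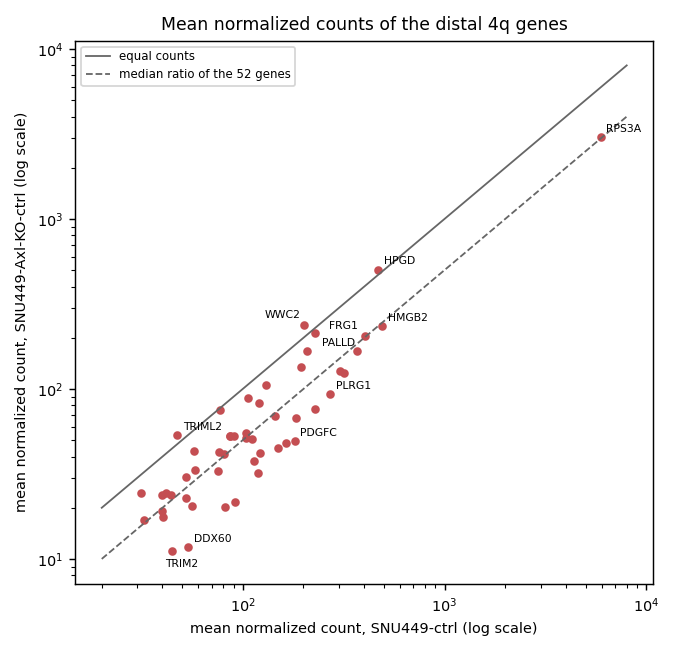
Mean normalized counts in SNU449-ctrl (x axis, log scale) and SNU449-Axl-KO-ctrl cells (y axis, log scale), 1 point per gene for 51 of the 52 genes; TENM3, with a count of 0 in SNU449-Axl-KO-ctrl cells, cannot be drawn. Most points lie near the dashed line of the median ratio, 0.50, from weakly expressed genes up to RPS3A, and HPGD, WWC2 and TRIML2 lie on or above the line of equal counts.

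The counts by role that follow stand beside 24 of the 52 genes and 3.43% of all genes called lower, and no list was tested against these shares. Genes of the RNA, ribosome and protein folding list included 7 of the 52. Of these, 4 fell in SNU449-Axl-KO-ctrl cells and 0 rose, with a median log2 difference of -0.88. The most abundant was RPS3A (151099624 to 151104642, plus strand), a protein of the small ribosomal subunit. Its levels were 12.27, 12.33 and 12.78 in SNU449-ctrl and 11.66, 11.47 and 11.56 in SNU449-Axl-KO-ctrl libraries, and 12.49, 12.38 and 12.20 in SNU449-Rego and 12.56, 12.80 and 12.45 in SNU449-Axl-KO-Rego libraries. The SNU449-Axl-KO-ctrl libraries were below the 9 others. RPS3A fell by 0.89 on the log2 scale in SNU449-Axl-KO-ctrl cells (SE 0.193, adjusted p = 0.00745 by limma), and its mean normalized count was 3025 against 5942 in SNU449-ctrl cells. RPS3A has processed pseudogenes and overlaps the end of SH3D19 by 1892 bases, so part of the reads of either gene may have been counted differently. The mean normalized count over all libraries was 5205 for RPS3A and 64.4 for SH3D19, which has more to gain from misplaced reads.

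PLRG1, a splicing factor whose upstream stretch is shown above, had levels of 8.26, 8.09 and 8.16 in SNU449-ctrl and of 7.03, 6.77 and 6.83 in SNU449-Axl-KO-ctrl libraries. It fell by 1.29 on the log2 scale (SE 0.186, limma adjusted p = 0.000293), and the groups did not overlap. SPCS3, a subunit of the signal peptidase complex, and FRG1 also fell, by 1.02 and 0.88 on the log2 scale. The mean normalized count of FRG1 was 204 in SNU449-Axl-KO-ctrl and 405 in SNU449-ctrl cells.

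Of 11 genes for genome maintenance and chromatin, 5 fell and 0 rose, with a median log2 difference of -0.56. FBXW7, the substrate-binding subunit of a ubiquitin ligase that marks cyclin E and MYC for degradation, had levels of 8.14, 7.94 and 7.70 in SNU449-ctrl and of 6.55, 6.63 and 6.83 in SNU449-Axl-KO-ctrl libraries. It fell by 1.25 on the log2 scale (SE 0.192, limma adjusted p = 0.000532). HMGB2, an abundant DNA-bending protein, had levels of 8.65, 9.10 and 9.15 in SNU449-ctrl and of 7.86, 8.08 and 7.98 in SNU449-Axl-KO-ctrl libraries, and fell by 1.0 on the log2 scale. NEK1, a kinase of cilia and the DNA damage response, fell by 1.26. CENPU, a centromere protein, fell by 1.17. NEIL3, a DNA glycosylase, fell by 1.10.

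NEK1 and CLCN3 are transcribed away from each other from adjoining starts with 0 bases between them. CLCN3, a chloride-proton exchanger of endosomes, had levels of 7.51, 7.72 and 7.70 in SNU449-ctrl and of 6.55, 6.43 and 6.67 in SNU449-Axl-KO-ctrl libraries. It fell by 1.09 on the log2 scale (SE 0.192, limma adjusted p = 0.00168). CLCN3 belongs to the membrane traffic and signalling list, where 3 of 7 genes fell and 0 rose, with a median of -0.60. RWDD4 and TRAPPC11 start 63 bases apart in the same arrangement, and their log2 differences were -0.78 (adjusted p = 0.0166 by limma) and -0.47 (adjusted p = 0.179 by limma).

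FNIP2, a folliculin-interacting protein of nutrient signalling, was among the 3 genes nearest to the median. Its levels were 6.21, 6.34 and 6.41 in SNU449-ctrl and 5.83, 5.67 and 5.64 in SNU449-Axl-KO-ctrl libraries. The log2 difference was -0.60 (SE 0.179), with an adjusted p of 0.0480 by limma that lay next to the threshold. The call was lost in 11 of the 12 fits that left out 1 library, with differences between -0.68 and -0.54, in the table over 6 libraries (-0.47) and after centring by spike-in RNAs (-0.48). The others were TMEM192, a lysosomal membrane protein, with -0.60 (adjusted p = 0.0586 by limma), and ING2, a chromatin reader, with -0.56 (adjusted p = 0.142 by limma).

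Metabolic and mitochondrial genes included 8 of the 52, of which 3 fell and 0 rose, with a median log2 difference of -0.45. GATB, which is needed for mitochondrial glutaminyl-tRNA, fell by 1.15 on the log2 scale. AGA, a lysosomal glycoprotein-degrading enzyme, fell by 0.99. SLC25A4, a mitochondrial ADP/ATP carrier, had a log2 difference of -0.50 that did not pass the test (adjusted p = 0.158 by limma).

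In the innate immunity and apoptosis list, 2 of 4 genes fell and 0 rose, with a median of -0.70. DDX60L and its paralog DDX60, interferon-inducible helicases that may share reads, fell by 1.04 and 0.96 on the log2 scale. The transcription factor IRF2 had a difference of -0.36 that did not pass the test. PDGFC, a ligand of the platelet-derived growth factor receptors, and LRBA, a regulator of vesicle traffic, were the 2 expressed genes of the secreted factor and receptor list, and both fell.

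Of 9 genes for cytoskeleton and adhesion, 4 fell and 0 rose, with a median log2 difference of -0.47. The actin-binding PALLD and the atypical cadherin FAT1 were the most abundant and had differences of -0.02 and -0.26 that did not pass the test. TENM3, a teneurin of cell adhesion, is described without a test, as it was above the minimum in SNU449-ctrl cells alone and without it 3 of 8 genes of this list fell. Its SNU449-ctrl levels were 5.78, 6.44 and 7.94, while each of the other 9 libraries was between 4.17 and 4.95, at the bottom of the scale. Its mean normalized counts were 121 in SNU449-ctrl and between 0 and 1.40 in the other groups. The log2 difference between SNU449-Axl-KO-ctrl and SNU449-ctrl was -2.23, and TENM3 was at the same bottom level in SNU449-Rego cells.

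In SNU449-Axl-KO-Rego cells, the distal 4q genes as a set were above their low levels in SNU449-Axl-KO-ctrl cells. Compared with SNU449-Axl-KO-ctrl cells, 51 of the 52 genes had a log2 difference above 0, with a median of 0.52 and quartiles of 0.40 and 0.70. Of them, 14 rose and 0 fell, against 2.54% of all genes and 2.67% of the protein-coding genes outside that were called higher. The ratio of mean normalized counts had a median of 1.79 over 51 genes with a count above 0 in SNU449-Axl-KO-ctrl cells. The 2 comparisons share the SNU449-Axl-KO-ctrl libraries, and 11 genes were called in both, lower in the first and higher in the second. Shared libraries favor such pairs for any gene, and the share of such pairs over all genes was not counted.

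**Figure D3:**
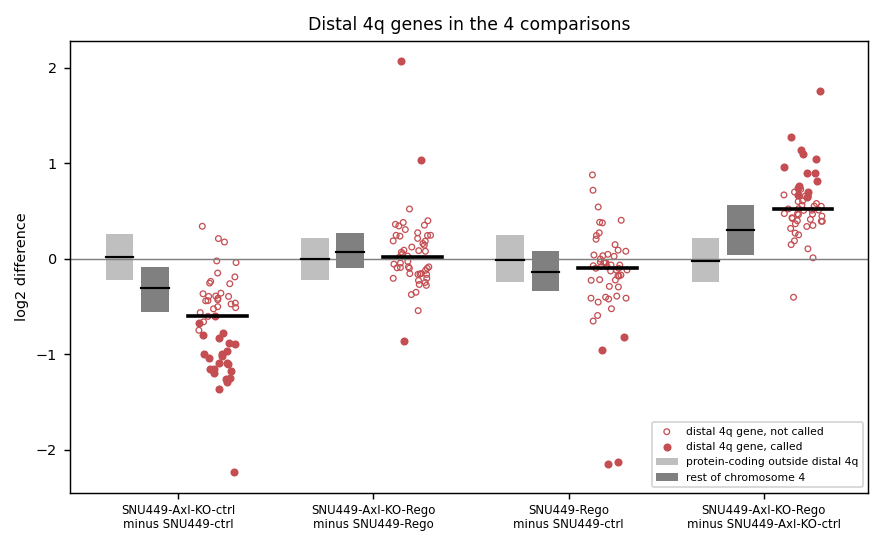
Log2 differences of the 52 genes (red points, filled where called) in the 4 comparisons, with the median as a thick line; gray bars span the quartiles of the protein-coding genes outside the region and of the rest of chromosome 4, with their medians as thin lines. The medians are -0.60 and 0.52 where SNU449-Axl-KO-ctrl cells are compared, and 0.02 and -0.09 in the other comparisons.

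The largest rise was that of PDGFC (156760454 to 156971799, minus strand). Its levels were 5.81, 6.51 and 6.34 in SNU449-Axl-KO-ctrl and 8.06, 8.17 and 7.69 in SNU449-Axl-KO-Rego libraries. In the Axl-proficient cells they were 8.02, 7.25 and 7.50 in control and 6.83, 6.78 and 7.19 in Rego-resistant libraries. The SNU449-Axl-KO-ctrl libraries were lower than the 9 others, and the SNU449-Axl-KO-Rego libraries were above each SNU449-Rego library. PDGFC rose by 1.75 on the log2 scale with resistance in the Axl-deficient cells (SE 0.242, limma adjusted p = 0.000303).

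CLCN3 rose by 1.27 (SE 0.192, limma adjusted p = 0.000682), and its SNU449-Axl-KO-Rego levels were 7.94, 8.0 and 7.53. NEK1 rose by 1.14, TMEM192 by 1.10 and RPS3A by 1.04 on the log2 scale. Without the second SNU449-Axl-KO-Rego library, RPS3A had a difference of 0.91 that no longer passed the test. By list, 3 of 11 genes for genome maintenance, 3 of 7 for RNA and protein folding and 3 of 7 for membrane traffic rose. Of all 52 genes 14 rose, where 2.54% of all genes were called higher, and no list was tested against these shares. In each of the remaining lists of 8, 9, 2 and 4 genes 1 gene rose, as did 1 of the 4 genes in no list.

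The number of genes called in this comparison depended on single libraries. It was 5 without the first and 4 without the second SNU449-Axl-KO-Rego library, 9 without the third, and 8, 5 and 8 without SNU449-Axl-KO-ctrl library 1, 2 and 3. The median stayed between 0.48 and 0.56 in all of these. Without the replicate number as a term of the fit, 25 genes were called.

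The remaining comparisons showed little movement of the region as a set. Between SNU449-Rego and SNU449-ctrl cells, the median log2 difference was -0.09, 0 genes rose where 4.31% of all genes were called higher, and 4 fell where 3.5% were called lower, or 3 without TENM3. Between SNU449-Axl-KO-Rego and SNU449-Rego cells, the median was 0.02, 2 genes rose where 2.44% of all genes were called higher, and 1 fell where 1.93% were called lower. The gene that fell was TRIM2, which passed the minimum only with its count in SNU449-Rego cells, so that its fall is a description. The median ratios of mean normalized counts were 0.918 and 1.03. With the spike-in RNAs as the reference for centring, which moved the median of all genes between the Rego-resistant groups by 0.30, the median of the region there was 0.33 and 6 genes were called. The number called was 0 without the first or second SNU449-Axl-KO-Rego library and 1 without the first or second SNU449-Rego library. A missing call does not show that the groups were equal.

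The difference between the Rego effect in Axl-deficient and in Axl-proficient cells was tested as an interaction term. Its median over the 52 genes was 0.71, 13 genes passed the test with a higher Rego effect in Axl-deficient cells and 0 with a lower, and 2.92% of all genes were called higher. Without TENM3, 12 genes passed. PDGFC had the largest difference, 2.41 (SE 0.342, limma adjusted p = 0.000363). The count was 5 without the first or second SNU449-Axl-KO-Rego library and 6 without the second SNU449-Axl-KO-ctrl library. It was 8 without the third SNU449-ctrl library, and 26 without the replicate number in the fit. The share of all genes called in these fits is not given here. The interaction uses the SNU449-Axl-KO-ctrl libraries as well and is no further evidence for their low levels.

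Genes that left the common shift were sought by subtracting, in each library, the median of the 52 genes and repeating the fit. In the comparison of SNU449-Axl-KO-ctrl with SNU449-ctrl cells, 16 of the 52 genes departed from the median, 5 above and 11 below it. Without TENM3, 15 of 51 departed. The same test, which subtracts the median of the region from every gene, called 70.8% of all genes. ACSL1, CBR4, TRIML2, WWC2 and HPGD departed above the median. Of these, the log2 differences of HPGD (0.34), WWC2 (0.21) and TRIML2 (0.17) lay on the other side of 0, and none of the 3 passed the test against 0.

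**Figure D4:**
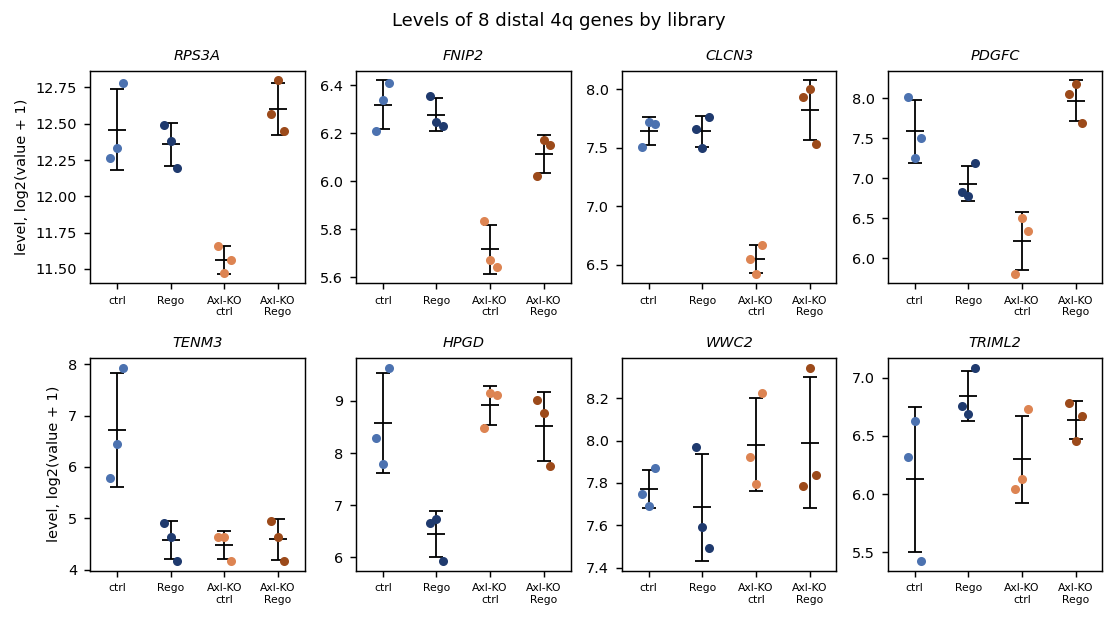
Levels (log2(value + 1)) of 8 distal 4q genes in the 12 libraries, 3 points per group with the mean and SD as bars; the y axes differ and do not start at 0. RPS3A, FNIP2, CLCN3 and PDGFC are lowest in SNU449-Axl-KO-ctrl cells, whereas TENM3 is high in SNU449-ctrl cells only, HPGD is low in SNU449-Rego cells, and WWC2 and TRIML2 overlap between SNU449-ctrl and SNU449-Axl-KO-ctrl cells.

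WWC2 (183099257 to 183320777, plus strand), a scaffold protein of Hippo signalling, did not pass the test in any of the 4 comparisons. Its levels were 7.75, 7.69 and 7.87 in SNU449-ctrl, 7.97, 7.59 and 7.49 in SNU449-Rego, 7.92, 7.79 and 8.22 in SNU449-Axl-KO-ctrl and 7.79, 8.34 and 7.84 in SNU449-Axl-KO-Rego libraries. All 4 groups overlapped. The mean normalized counts were between 195 and 243. WWC2 was 0.85 above the median of the region in SNU449-Axl-KO-ctrl against SNU449-ctrl cells (limma adjusted p = 0.00253) and 0.54 below it where the region rose with resistance in Axl-deficient cells, a departure of -0.54 (limma adjusted p = 0.0376).

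HPGD (174490175 to 174523154, minus strand), which inactivates prostaglandins, followed another order. Its levels were 8.29, 7.79 and 9.64 in SNU449-ctrl, 6.66, 6.74 and 5.93 in SNU449-Rego, 8.48, 9.15 and 9.12 in SNU449-Axl-KO-ctrl and 9.01, 8.77 and 7.75 in SNU449-Axl-KO-Rego libraries. The SNU449-Rego libraries were below all others, and the remaining groups overlapped. HPGD fell by 2.13 on the log2 scale with resistance in Axl-proficient cells (SE 0.390, limma adjusted p = 0.00186). It was 2.07 higher in SNU449-Axl-KO-Rego than in SNU449-Rego cells (limma adjusted p = 0.00477), a call that was lost without the first or the second SNU449-Axl-KO-Rego library, with differences of 1.73 and 1.90. The difference between SNU449-Axl-KO-ctrl and SNU449-ctrl cells turned to -0.18 without the second SNU449-ctrl library and was 1.05, past the threshold, without the third.

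TRIML2 (188091272 to 188109603, minus strand) had levels of 6.32, 6.63 and 5.43 in SNU449-ctrl and of 6.04, 6.13 and 6.73 in SNU449-Axl-KO-ctrl libraries. The third SNU449-ctrl library was the lowest of the 12, and the difference between these groups was -0.29 without it. CBR4, a mitochondrial carbonyl reductase, had a log2 difference of -0.04, and ACSL1, a fatty acid ligase, had -0.15. ACSL1 passed the minimum only with its count in SNU449-Axl-KO-Rego cells, a group outside this comparison. PALLD, at -0.02, did not depart by this test (limma adjusted p = 0.0833), and its SD was 0.66 among the SNU449-ctrl libraries.

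Below the median, TENM3, PDGFC, PLRG1, NEK1, FBXW7, ARFIP1, CENPU, SH3D19, GATB, NEIL3 and CLCN3 departed with falls larger than that of the region. This list depends on the scale. DDX60 did not depart, though its ratio of mean normalized counts was 0.218, against 0.342 for PLRG1. The number of departing genes was 6 to 18 when 1 library was left out. It was 9, 6 and 9 without SNU449-Axl-KO-ctrl library 1, 2 and 3, and 7 and 10 without SNU449-ctrl library 1 and 2.

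In the other comparisons few genes departed. Between SNU449-Rego and SNU449-ctrl cells 4 of the 52 departed, against 8.54% of all genes, and HPGD, DDX60L and NEIL3 were below the median. The other was TENM3, whose high count in SNU449-ctrl cells made it a member, and its departure is no test. DDX60L had levels of 7.15, 7.07 and 6.98 in SNU449-ctrl and of 6.0, 6.27 and 6.04 in SNU449-Rego libraries and fell by 0.96 on the log2 scale. NEIL3 had levels of 6.64, 6.85 and 6.69 in SNU449-ctrl and of 5.91, 5.86 and 5.95 in SNU449-Rego libraries and fell by 0.82. For these 4 genes SNU449-ctrl cells were above SNU449-Rego cells without overlap, which is no further support, as the same libraries picked them. Of the 52 genes, 12 were lower and 6 higher in SNU449-Rego cells without overlap, and the share over all genes was not counted. Without the replicate number in the fit 7 genes departed, and without the first or the third SNU449-Rego library 2 did.

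Between SNU449-Axl-KO-Rego and SNU449-Rego cells 3 genes departed, against 3.75% of all genes, and these were HPGD and PDGFC above and TRIM2 below the median. TRIM2, a ubiquitin ligase, had levels of 6.77, 6.93 and 6.44 in SNU449-Rego and of 5.73, 5.78 and 6.04 in SNU449-Axl-KO-Rego libraries. Its difference of -0.86 and that of PDGFC, 1.04 (limma adjusted p = 0.0191), were no longer called without the first or second library of either group. The mean count of TRIM2 over the groups other than SNU449-Rego was 28.3, under the minimum, so its high level there helped to make it a member. The fall and the departure of TRIM2 in this comparison are therefore a description and no test. Between SNU449-Axl-KO-Rego and SNU449-Axl-KO-ctrl cells 7 genes departed, against 56.1% of all genes. RPS3A, TMEM192, NEK1, CLCN3 and PDGFC were above the median, and HPGD and WWC2 were below it. The number was 4 without the first or second SNU449-Axl-KO-Rego library and 3 without the third or without the second or the third SNU449-Axl-KO-ctrl library.

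The shift was not uniform along the region. The 12 genes in the first 10 Mb had a median log2 difference of -1.02 between SNU449-Axl-KO-ctrl and SNU449-ctrl cells, and 9 of them fell. The medians of the next steps of 10 Mb were -0.42 (8 genes), -0.51 (13 genes) and -0.56 (17 genes). The 10 neighboring genes from LRBA to PDGFC (150264435 to 156971799), a stretch chosen after its values were seen, had differences between -1.37 and -0.75, and 9 of them fell. The other 42 genes had a median of -0.49, and 15 of them fell. With resistance in Axl-deficient cells, the 10 genes had a median of 0.52 and the other 42 had 0.54. Between SNU449-Axl-KO-Rego and SNU449-Rego cells, the 10 genes had a median of -0.19 and the other 42 had 0.07. PLRG1 levels of 7.14, 7.60 and 7.47 in SNU449-Axl-KO-Rego libraries were below each library of both Axl-proficient groups. Its difference from SNU449-Rego cells, -0.54, did not pass the test (adjusted p = 0.112 by limma). PDGFC, in the same stretch, had 1.04.

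**Figure D5:**
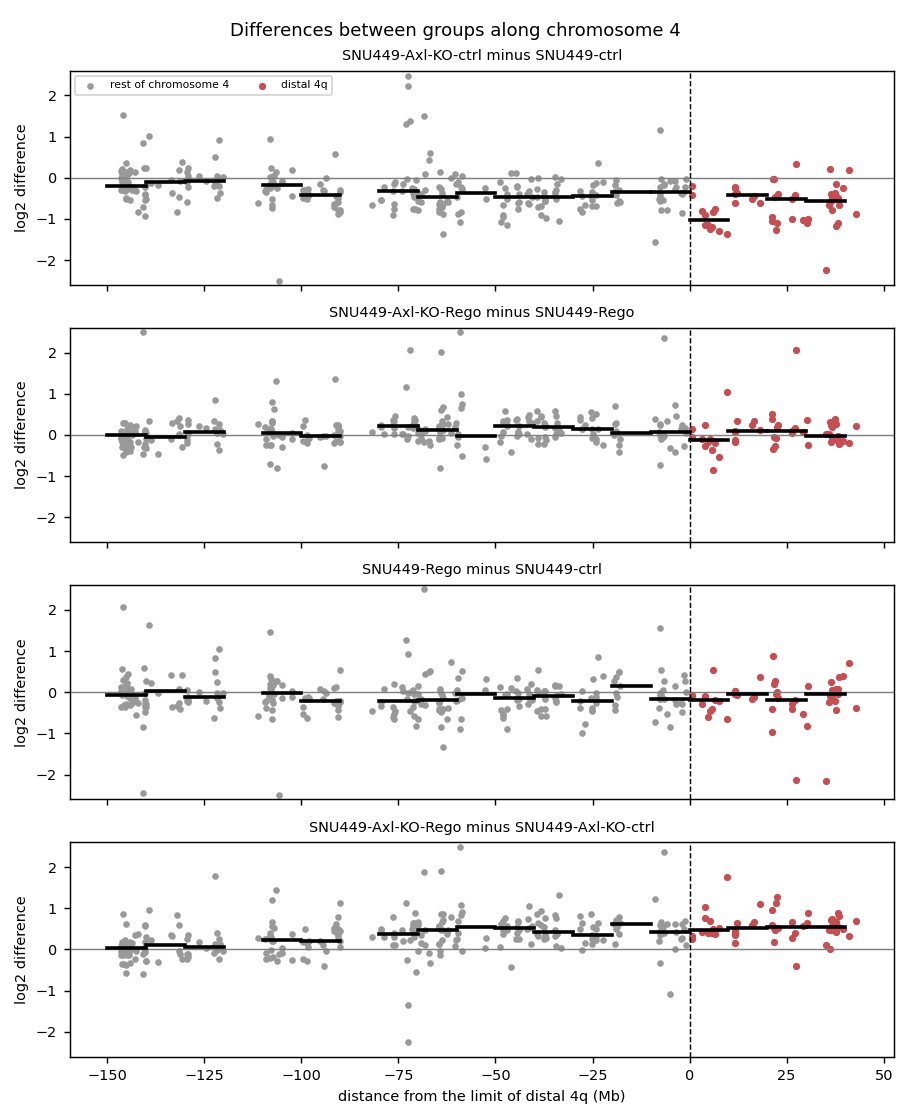
Log2 differences of protein-coding genes along chromosome 4 in the 4 comparisons, by the distance of the gene's start from the limit of distal 4q (dashed line, in Mb, negative toward the short arm); red points are distal 4q genes, black lines the medians of steps of 10 Mb with 5 or more genes, and points beyond 2.5 are drawn at 2.5. In the first panel the black lines lie below 0 in every step, between -0.07 and -0.19 in the first steps and at -1.02 just inside the limit.

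The limit is no border of the shift. In the same comparison, 43 of 277 genes on the rest of chromosome 4 fell, or 15.5%, where 3.43% of all genes were called lower. Of the 277, 9 rose, or 3.25%, where 4.03% of all genes were called higher. The median log2 difference of the 277 was -0.31. The 8 steps before the limit had medians between -0.48 and -0.32, whereas the 3 steps at the far end of the short arm had medians between -0.19 and -0.07. The 3 genes just outside the limit, SMAD1, ZNF827 and LSM6, had differences of -0.34, -0.24 and -0.03, and the 3 just inside, TMEM184C, ARHGAP10 and LRBA, had -0.43, -0.19 and -0.80. With resistance in Axl-deficient cells, the rest of chromosome 4 had a median of 0.30, with 36 genes that rose and 3 that fell. Of all genes, 2.54% were called higher and 1.81% lower with resistance in these cells. Other chromosomes shifted as well. The medians of the 22 other chromosomes lay between -0.38, for chromosome 9, and 0.38, for chromosome 3, in the comparison of SNU449-Axl-KO-ctrl with SNU449-ctrl cells, and chromosome 9 had 0.38 with resistance in Axl-deficient cells.

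The members spread differently in the 2 comparisons. The interquartile range of the log2 differences was 0.64 over the 52 genes and 0.49 over the genes outside in SNU449-Axl-KO-ctrl against SNU449-ctrl cells, and 0.30 against 0.46 with resistance in Axl-deficient cells. The 26 genes with the higher mean counts had a median of -0.84 in the first comparison, with 15 that fell. The 26 with the lower counts had a median of -0.52, with 9 that fell. On the stabilized scale a given ratio of counts gives a smaller difference for a weakly expressed gene.

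The genes left out behaved in different ways. FGB and FGG code for fibrinogen chains and lie within the LRBA to PDGFC stretch. FGB levels were 5.49, 4.09 and 4.64 in SNU449-ctrl, 5.21, 6.0 and 6.19 in SNU449-Axl-KO-ctrl and 7.57, 9.10 and 8.20 in SNU449-Axl-KO-Rego libraries. It rose by 2.49 on the log2 scale between the last 2 groups. FGG rose in SNU449-Axl-KO-ctrl against SNU449-ctrl cells by 1.24 (limma adjusted p = 0.0150), the direction opposite to its neighbors. Its SNU449-ctrl levels of 5.0, 3.91 and 4.52 were near the bottom of the scale. FGG rose further by 1.35 in SNU449-Axl-KO-Rego cells. The mean normalized counts of FGB and FGG were 376 and 145 in SNU449-Axl-KO-Rego cells and at most 32.1 and 28.4 in the other groups. That group alone took both over the minimum, so their rises there are a description and no test. FGA had a mean normalized count of 4.41 and is under the minimum. MSMO1, an enzyme of cholesterol synthesis, followed the region, as it fell by 1.35 in SNU449-Axl-KO-ctrl cells (limma adjusted p = 0.000834) and rose by 1.16 with resistance in Axl-deficient cells.

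Of the 36 protein-coding genes at or under the minimum, 25 had a log2 difference below 0 between SNU449-Axl-KO-ctrl and SNU449-ctrl cells, with a median of -0.24. Of the 36, 5 fell, where 3.43% of all genes were called lower. Just under the minimum, DCLK2, with a mean normalized count of 26.3, had a difference of -0.01 and KLHL2, with 28.3, had -0.59. Just above it, TENM3, with 30.7, and CDKN2AIP, with 32.8, had -2.23 and -0.39. Like TENM3, TRIM2 and ACSL1, CDKN2AIP was under the minimum without its highest group, which was SNU449-Rego. SH3D19 overlaps RPS3A by 1892 bases. ETFDH overlaps PPID by 1616 bases and C4orf46 by 288 bases, and PALLD overlaps CBR4 and DDX60L. Whether the counting used the strand is not given in the sources used here, and the reads of these genes may be counted for a partner.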

How the data were processed

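The authors prepared QuantSeq 3′ mRNA libraries of the 4 groups, 3 per group. Reads were trimmed (cutadapt 4.0) and mapped by the authors with STAR 2.5.3a to a reference of GRCh38, GENCODE release 40 annotation and spike-in sequences. The authors filtered gene counts for weak expression and modelled them with DESeq2, where the design held the date of preparation. The 8 deposited tables give a score for each library, which is 2 raised to the variance-stabilized level after the authors removed the preparation effect, rounded to a whole number. Each table also gives the mean normalized count of a gene, a signal for which the authors scaled counts by library size factors and took the mean of all libraries in that table. Their columns of fold changes, standard errors and p-values were not used. Without read counts, the depth of a library is unknown. The sums of the mean normalized counts ranged from 4.16e+06 to 4.92e+06 over the tables.

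Members were protein-coding genes on chromosome 4 that start at or above 147 Mb with a mean normalized count above 30, without FGA, FGB, FGG and MSMO1. Members and lists by role, the latter written from general knowledge, were chosen with earlier results of these data known. For all 15601 genes of the table that compares the backgrounds, a linear model of log2(value + 1) on group and replicate number was fitted (limma 3.58.1 under R 4.3.3, two-sided, with a mean-dependent prior variance). Spike-in RNAs (32) were left out, and a Benjamini-Hochberg adjusted p under 0.05 was called. Departures were fitted after the median of the members was subtracted in each library. The fit was tested on simulated data. The replicate block was kept because the authors put the preparation date into their design and because the means over libraries with the same number were nearly equal, with a median absolute deviation of 0.00127 at most on the log2 scale, as removal of an effect that follows the number leaves it. Deviations of libraries with the same number therefore correlated negatively by construction, between -0.48 and -0.09 in 18 pairs.

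Named genes were the 5 largest rises and falls among called members per comparison, members on the other side of 0 from the median, those next to each limit and to the median, the 4 most abundant of each list, the 4 genes left out, and AXL. ACSL1, CBR4 and members named only as departing, as neighbors, for their interaction or in the chosen stretch were named after their values were seen. Promoter sequences are from RefSeq on GRCh38.p14, and exons from a later GENCODE release. Alternatives were the fit without the block, other tables, centring, filters, limits, pseudocount and leaving out each library. The values of 1 member are not reported here on its own, and it enters the counts and medians only.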

Additional observations from a re-analysis of the deposited data

Results flagged for a closer look

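For 13 of the 52 distal 4q genes, the Rego effect differed between Axl-deficient and Axl-proficient cells by the interaction term (limma, Benjamini-Hochberg adjusted p under 0.05), and in each of them it was higher in the Axl-deficient cells. The difference of the 2 log2 effects was 2.41 for PDGFC, 2.25 for TENM3, 1.57 for DDX60L, 1.46 for NEIL3 and 1.36 for DDX60. It was 1.27 for CLCN3, 1.17 for NEK1, 1.15 for FBXW7, 1.14 for RPS3A and 1.10 for SPCS3. It was 1.09 for FRG1, 1.08 for HMGB2 and 0.99 for GATB. TENM3 passed the minimum mean count only through its high SNU449-ctrl libraries, so its value was set by the choice of genes and is a description. Both Axl-deficient groups were at the bottom of the scale for it, and 12 genes remain without it. Each of these differences uses the SNU449-Axl-KO-ctrl libraries.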

How the results depend on the processing

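Under every alternative run, the median log2 difference of the distal 4q genes stayed below 0 between SNU449-Axl-KO-ctrl and SNU449-ctrl cells and above 0 with resistance in Axl-deficient cells and for the interaction. Centring libraries on the spike-in RNAs shifted the median of all genes by 0.13 between SNU449-Axl-KO-ctrl and SNU449-ctrl, by 0.30 between SNU449-Axl-KO-Rego and SNU449-Rego, by -0.06 with resistance in Axl-proficient and by 0.12 in Axl-deficient cells, and by 0.18 for the interaction. The medians of the 52 genes were then -0.48, 0.33, -0.15, 0.64 and 0.89, in the same order, and 6 genes were called between SNU449-Axl-KO-Rego and SNU449-Rego. In the tables over 6 libraries, which have their own stabilization, the medians were -0.47 between SNU449-Axl-KO-ctrl and SNU449-ctrl and 0.36 with resistance in Axl-deficient cells. With the limit 5 Mb lower, the median between SNU449-Axl-KO-ctrl and SNU449-ctrl was -0.51. With a mean normalized count above 100, the medians were -0.89 there, 0.081 between the Rego-resistant groups, 0.66 with resistance in Axl-deficient cells and 0.86 for the interaction, and 13, 9 and 8 of the fewer genes were called in the first, the third and the last of these and 1 with resistance in Axl-proficient cells. With FGA, FGB, FGG and MSMO1 kept, 5 genes were called between SNU449-Axl-KO-Rego and SNU449-Rego.

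Without the replicate block, 25 genes were called with resistance in Axl-deficient cells and 26 for the interaction, and 7 departed from the median with resistance in Axl-proficient cells. The pairing by replicate number leaves fewer residual degrees of freedom, and the library values no longer hold the preparation effect. The block moved no other count of calls by over 1.5 times and changed the call of 1 of 24 values of named genes, TMEM192 between SNU449-Axl-KO-ctrl and SNU449-ctrl.

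Leaving out 1 library at a time gave 16 to 25 called genes and medians of -0.66 to -0.60 between SNU449-Axl-KO-ctrl and SNU449-ctrl, 0 to 3 and -0.037 to 0.091 between the Rego-resistant groups, 4 to 5 and -0.14 to -0.027 with resistance in Axl-proficient cells, 4 to 16 and 0.48 to 0.56 in Axl-deficient cells, and 5 to 12 and 0.65 to 0.75 for the interaction. The departing genes numbered 6 to 18, 1 to 3, 2 to 4 and 3 to 7 in the first 4 of these. The 0 calls came without the first or second SNU449-Axl-KO-Rego library, and the 5 for the interaction came without the same libraries. For all counts of called or departing genes under alternatives, the share of all genes in the same fit is not given here. Of 408 values of single genes under alternatives, 375 kept their direction and side of the threshold, 26 lost and 3 gained the call, and 4 changed direction. These were HPGD between SNU449-Axl-KO-ctrl and SNU449-ctrl (-0.18 without the second SNU449-ctrl library, range up to 1.05) and with resistance in Axl-deficient cells (0.10 without the third SNU449-Axl-KO-Rego library, range down to -0.74), and TRIML2 (-0.11 without the third SNU449-Axl-KO-ctrl and -0.29 without the third SNU449-ctrl library, range up to 0.51). FNIP2 lost its call under 13 alternatives. The cause of these changes was not tested. With 1 population per group and an unknown depth, no difference can be assigned to Axl, Rego or copy number.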
